A study of Mus musculus with 10 samples.

Results

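The photoreceptor guanylate cyclase genes were followed in explanted mouse retina at 5 mM and 25 mM glucose. The set holds 5 genes: the membrane cyclases Gucy2e and Gucy2f, the calcium-sensing activator proteins Guca1a and Guca1b, and Rd3. Every peak that the authors' annotation assigned to one of these genes was taken, which gave 23 of 108253 peaks: 1 for Gucy2e, 4 for Gucy2f, 3 for Guca1a, 2 for Guca1b and 13 for Rd3. Of the 23, 6 were promoter peaks, among 17144 in all.

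Retinas came from wild-type C57BL/6J mice at P28, freed of sclera and pigment epithelium, and were kept for 48 hours in Neurobasal-A medium with B27 and N2 supplements that differed in glucose. CUT&Tag directs a transposase to a histone mark through an antibody, so that sequenced fragments mark where it lies. Lactylation of histone H3 at lysine 18 (H3K18La) was profiled in 3 libraries per glucose level and acetylation at lysine 27 (H3K27Ac) in 2, so that the 4 groups were H3K18La at 5 mM, H3K18La at 25 mM, H3K27Ac at 5 mM and H3K27Ac at 25 mM. Titles and the study's methods give H3K27Ac and a Tn5 transposase, whereas the extraction protocol in the labels names an antibody to H3K9me3 and a micrococcal nuclease. The titles were followed, and the identity of the second mark rests on them. The labels do not say which libraries share an animal, and p-values measure only the spread between these libraries. Whole retinas were dissociated, so a changed share of photoreceptors and a changed amount of the mark per photoreceptor cannot be told apart.

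Rods and cones hold their membrane channels open with cyclic GMP, which light destroys through a phosphodiesterase. The membrane cyclases make it again from GTP, and the activator proteins speed them up when calcium falls after a flash. Rd3 binds the cyclases, keeps them inactive in the inner segment and is needed for their passage to the outer segment, and mutations in the human counterparts of several of these genes cause inherited retinal disease.

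The 250 bases before the RefSeq start of 4 of the genes are shown because the promoter peaks over them carry the comparison below. Capitals mark TAATCC, the core of the site of the photoreceptor homeodomain factor CRX, or its reverse complement GGATTA. The sequences read 5′ to 3′ along the gene's strand, in GRCm38.p6, and come from RefSeq.
Gucy2e, chr11:69237023-69237272, minus strand: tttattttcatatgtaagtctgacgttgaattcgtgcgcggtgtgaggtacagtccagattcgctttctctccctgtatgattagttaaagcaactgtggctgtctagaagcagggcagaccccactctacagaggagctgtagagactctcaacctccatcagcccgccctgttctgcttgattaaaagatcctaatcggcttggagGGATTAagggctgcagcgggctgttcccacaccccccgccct
Gucy2f, chrX:142196937-142197186, minus strand: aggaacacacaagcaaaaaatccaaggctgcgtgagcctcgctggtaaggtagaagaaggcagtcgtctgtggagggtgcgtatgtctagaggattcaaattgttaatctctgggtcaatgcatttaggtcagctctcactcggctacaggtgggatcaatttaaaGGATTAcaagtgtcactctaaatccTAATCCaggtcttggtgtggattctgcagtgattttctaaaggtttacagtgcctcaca
Guca1a, chr17:47400607-47400856, minus strand: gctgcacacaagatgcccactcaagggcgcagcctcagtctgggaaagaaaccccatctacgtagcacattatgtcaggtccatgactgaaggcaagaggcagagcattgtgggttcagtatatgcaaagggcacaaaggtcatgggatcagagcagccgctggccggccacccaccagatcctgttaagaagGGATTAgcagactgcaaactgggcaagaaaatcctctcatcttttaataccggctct
Rd3, chr1:191977120-191977369, plus strand: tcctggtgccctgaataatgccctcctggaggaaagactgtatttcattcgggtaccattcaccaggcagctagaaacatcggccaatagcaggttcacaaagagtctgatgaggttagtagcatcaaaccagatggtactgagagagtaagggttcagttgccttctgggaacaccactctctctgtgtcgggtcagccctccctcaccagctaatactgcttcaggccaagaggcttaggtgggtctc

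The letters occur once before Gucy2e, with the first base 42 bases before the start. They occur 2 times before Gucy2f, at 84 and 59 bases, and once before Guca1a, at 57 bases. They do not occur in the Rd3 window shown, nor in a second RefSeq window of Rd3 at chr1:191978004-191978253. Of all 32851 such windows, 6.25% hold the letters on either strand. A half-site of the rod factor NRL (TGCTGA, or TCAGCA on the other strand) is in none of these 5 windows and in 16.1% of all. The GC box GGGCGG, or CCGCCC, occurs 2 times before Gucy2e, against 32.7% of windows with at least 1, and in none of the other 4. None of the 3 motifs overlaps another in the windows shown. Guca1b had no entry in the table.

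Levels are given in RPKM, which are reads per 1000000 reads of the library (RPM) divided by the length of the peak in kilobases, so they can be compared between peaks of unequal length. For each peak, 25 mM and 5 mM were compared with limma on log2(RPKM + 0.5), each mark alone, and a peak was called when the p-value, adjusted over all 72467 peaks with a mean of at least 1 RPKM, was under 0.05. The same libraries differed widely in the share of reads that fell in any peak: 11.8% to 12% for H3K18La at 5 mM against 31.2% to 35.0% at 25 mM, and 21.1% and 31.5% for H3K27Ac at 5 mM against 69.5% and 56.5% at 25 mM. In the same direction, the tested peaks as a whole had a median log2 fold change of 1.04 for H3K18La and of 0.83 for H3K27Ac. The members are therefore read against these medians throughout. The medians are not taken from peaks of like strength, and log2(RPKM + 0.5) understates changes of weak peaks. Part of a difference from them may thus reflect peak strength, which was not tested.

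At the member genes both marks were higher at 25 mM in all 6 promoter peaks, and by more than the median peak. All 6 were called in each mark, where 26.8% of the 14815 tested promoter peaks were called higher for H3K18La, with a median log2 fold change of 0.97, and 58.0% for H3K27Ac, with a median of 1.23. Of the 23 peaks 22 were tested, since an exon peak of Gucy2f, 85257 bp into the gene, averaged 0.557 RPKM. For H3K18La 18 of 22 were called, all higher, where 33.3% of all tested peaks were called higher. For H3K27Ac 17 of 22 were called, all higher, where the background was 33.5%. The median log2 fold change of the 22 was 1.67 for H3K18La and 1.65 for H3K27Ac. One of them, the intron peak of Gucy2f, passed the filter only through its 25 mM values, so these shares are not those of all members. By limma it was among the 17 called for H3K27Ac (adjusted p = 0.0304), a call that the filter favoured, and not among the 18 for H3K18La. Over all 23 peaks, the 25 mM libraries lay wholly above the 5 mM libraries in 20 for H3K18La and in 22 for H3K27Ac, against 36.6% and 53.0% of all peaks.

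**Figure D1:**
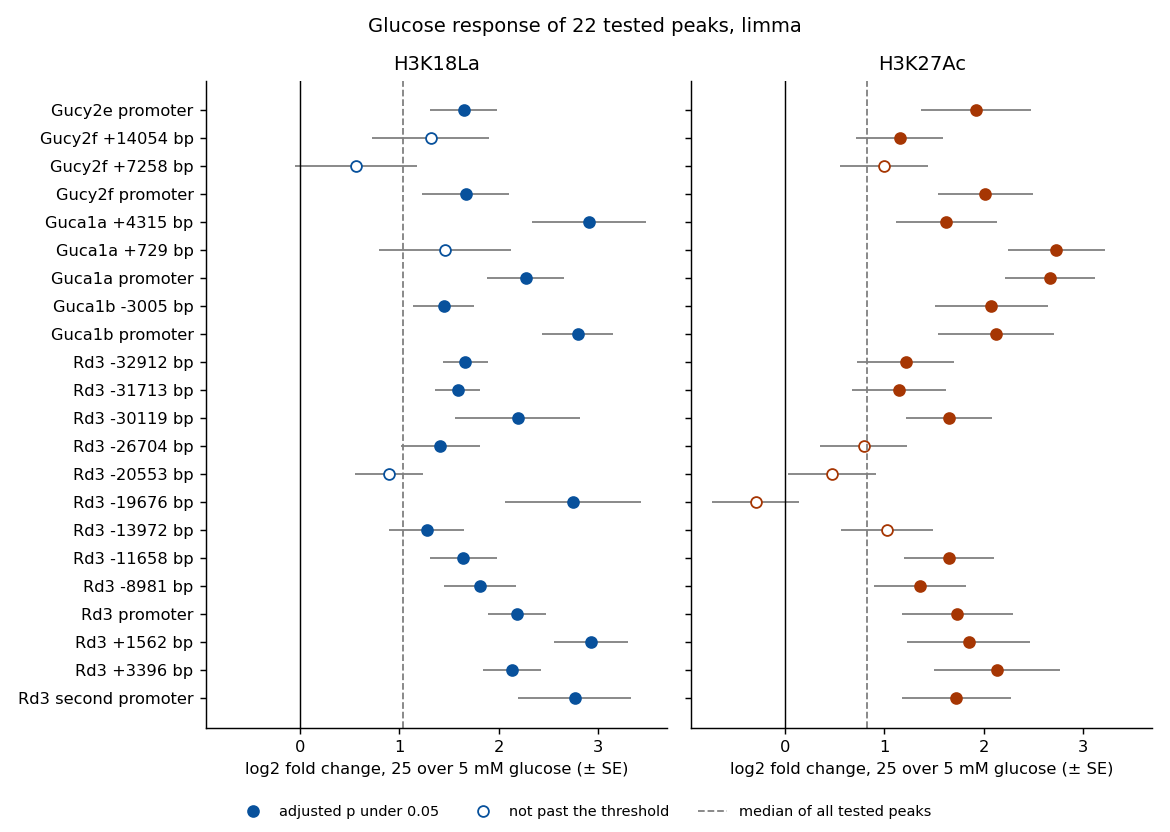
Log2 fold change of 25 over 5 mM glucose on the log2(RPKM + 0.5) scale for the 22 tested peaks, H3K18La left and H3K27Ac right, with the standard error of limma as bars. Filled points had an adjusted p under 0.05 (18 and 17 peaks), and the dashed line is the median of all 72467 tested peaks, 1.04 and 0.83. Names give the gene and the distance of the peak from the gene's start.

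These calls rest on the RPM scale. When each library was instead centred on its median peak, 4 members were called for H3K18La (the promoter peaks of Guca1b and Rd3 and both intron peaks of Rd3) and 3 for H3K27Ac (the Guca1a promoter, the Guca1a intron peak nearest to it and the peak upstream of Guca1b), against 1.64% and 1.22% of all peaks. When libraries were scaled to their reads in peaks, limma called none for either mark, nor any other peak. On that scale 7 members for H3K18La and 10 for H3K27Ac had an unadjusted p under 0.05, against 10.9% and 16.6% of all tested peaks. On it every member promoter stayed higher at 25 mM, with log2 fold changes of 0.33 to 1.77 for H3K18La and 0.48 to 1.54 for H3K27Ac. For H3K27Ac, limma at these settings pooled the spread of all peaks into 1 trend, with 144934 degrees of freedom, and with no minimum RPKM it had 4.82 and called no peak, although the members' median log2 fold change was 1.65 in both fits. Without the first or second H3K27Ac library at 25 mM the calls fell to 0 and 2.

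Gucy2e encodes the membrane cyclase of rods and cones that makes most of their cyclic GMP, and its single peak, chr11:69235223-69237459, covered the promoter. The H3K18La libraries gave 3.81, 2.07 and 2.63 RPKM at 5 mM and 13.9, 7.04 and 9.34 at 25 mM. The H3K27Ac libraries gave 10.2 and 14.7 at 5 mM and 57.8 and 39.7 at 25 mM. Neither mark's groups overlapped. The log2 fold change was 1.65 ± 0.33 (SE) for H3K18La (adjusted p = 0.00395) and 1.92 ± 0.56 for H3K27Ac (adjusted p = 0.00586). The H3K18La call was lost when reads were thinned to equal RPKM denominators (1.75, adjusted p = 0.0527). The peak ranked high among promoters at both glucose levels: 96.2% of promoter peaks were weaker in H3K18La at 5 mM and 96.1% at 25 mM, with 97.6% and 99.0% for H3K27Ac. Its place among promoters thus moved little while its level rose 3.55-fold and 3.91-fold between group means.

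Gucy2f encodes the other membrane cyclase of the retina and lies on the X chromosome. Its promoter peak, chrX:142196674-142197503, held 1.14, 1.16 and 1.77 RPKM of H3K18La at 5 mM and 9.19, 5.63 and 2.84 at 25 mM, which rests on 2 to 5 and 7 to 19 reads per library. H3K27Ac gave 3.62 and 5.82 at 5 mM and 26.5 and 15.3 at 25 mM. Groups did not overlap, but the 25 mM H3K18La libraries spread widely (5.89 ± 3.18 RPKM, SD, n = 3). The log2 fold change was 1.67 ± 0.43 for H3K18La (adjusted p = 0.0135) and 2.01 ± 0.48 for H3K27Ac (adjusted p = 0.00108). Without the first 25 mM library the H3K18La value was 1.30 (adjusted p = 0.0653), and without the second it was 1.63 (adjusted p = 0.0571), so that call depends on each of them. It was also lost when thinned (1.57, adjusted p = 0.0789). The median log2 fold change of the 1037 tested X chromosome peaks was 1.16 for H3K18La and 1.06 for H3K27Ac.

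The Gucy2f promoter was weaker than that of Gucy2e in every group, 1.36 against 2.84 RPKM for H3K18La at 5 mM and 20.9 against 48.8 for H3K27Ac at 25 mM. The other 3 Gucy2f peaks lay in exons or an intron and held almost no H3K18La. In these 3 peaks the 6 H3K18La libraries had 0 to 4 reads, with 0 reads in 10 of 18 values, while H3K27Ac at 25 mM had 8 to 40 reads. The strongest by the mean over all 10 libraries, though not in H3K18La, was chrX:142189029-142189673, in an exon 7258 bp into the gene. It had 1 read of H3K18La over the 3 libraries at 5 mM and 3 reads at 25 mM, a ratio of 2.88 per read of the denominator (95% exact interval of the counts, 0.232 to 151). Its H3K27Ac values were 2.15 and 4.24 RPKM at 5 mM and 5.17 and 8.35 at 25 mM, with a log2 fold change of 1.00 ± 0.44 (adjusted p = 0.0640). The intron peak, chrX:142182005-142182877, had 0, 0.442 and 0 RPKM of H3K18La at 5 mM and 1.17, 0.563 and 1.54 at 25 mM. Its groups did not overlap, but they rest on 2 reads against 8, a ratio of 3.85 (interval 0.767 to 37.2). It was not called (1.31 ± 0.58, adjusted p = 0.102), and was called when reads were thinned to equal RPKM denominators (1.66, adjusted p = 0.0373). With so few reads the H3K18La comparison in the body of Gucy2f stays uncertain.

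**Figure D2:**
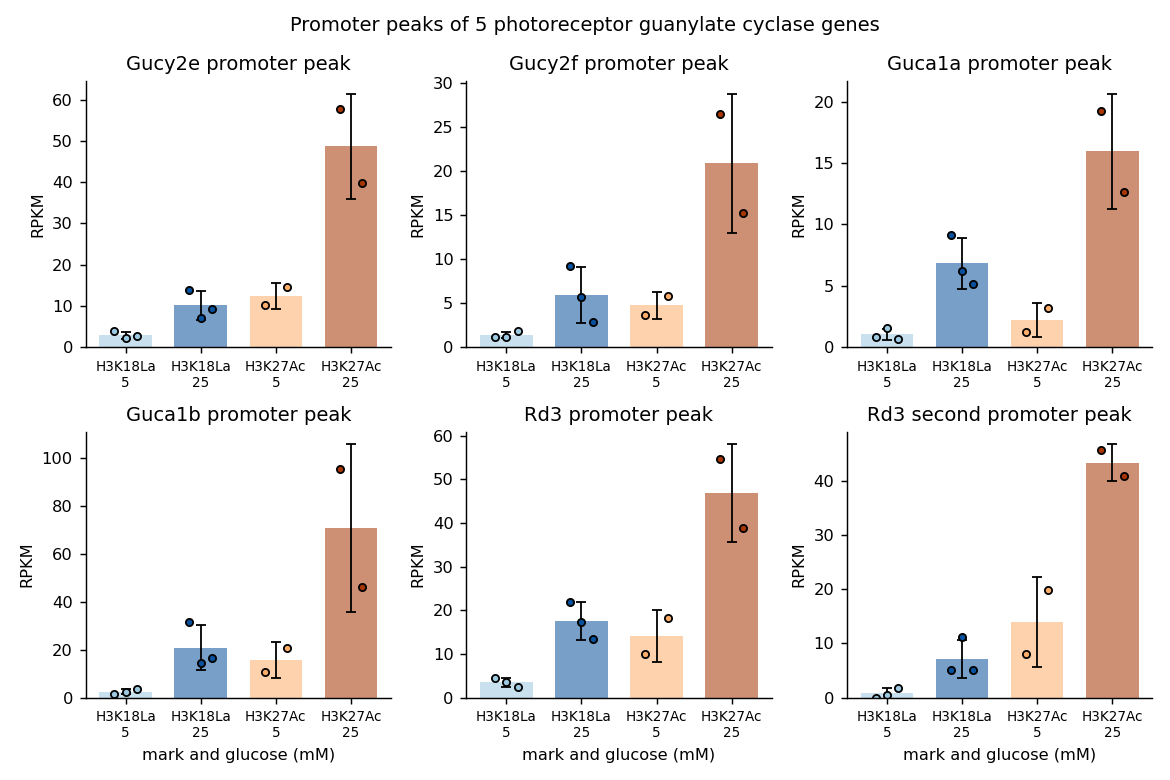
RPKM of the 6 promoter peaks by mark and glucose level. Bars are means, whiskers SD, and each point is 1 library (3 per H3K18La group, 2 per H3K27Ac group), and in each panel all 25 mM points lie above the 5 mM points of the same mark. Each panel has its own axis, from 0.

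The activator genes Guca1a (GCAP1) and Guca1b (GCAP2) are neighbours on chromosome 17, on opposite strands, with 1590 bp between their 3′ ends. They differed in level. The Guca1b promoter peak, chr17:47385074-47385667, was the strongest of all member promoters at 25 mM, with 31.7, 14.5 and 16.5 RPKM of H3K18La and 95.5 and 46.0 of H3K27Ac. At 5 mM it had 1.60, 2.27 and 3.72 RPKM of H3K18La and 10.5 and 20.9 of H3K27Ac. The log2 fold change was 2.79 ± 0.36 for H3K18La (adjusted p = 0.000571) and 2.12 ± 0.58 for H3K27Ac (adjusted p = 0.00404). At 25 mM 99.6% of promoter peaks were weaker in H3K18La and 99.9% in H3K27Ac.

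The Guca1a promoter peak, chr17:47400143-47401253, was the weakest of the 5 main promoters in both marks at 5 mM. It had 0.853, 1.56 and 0.663 RPKM of H3K18La at 5 mM, from 1 to 9 reads, and 9.16, 6.20 and 5.16 at 25 mM. H3K27Ac rose from 1.25 and 3.19 to 19.3 and 12.6 RPKM. The log2 fold change was 2.27 ± 0.39 for H3K18La (adjusted p = 0.00167) and 2.66 ± 0.45 for H3K27Ac (adjusted p = 4.19e-06). Here the rank among promoters moved as well: 56.8% of promoter peaks were weaker in H3K18La at 5 mM and 91.7% at 25 mM, and for H3K27Ac 38.5% and 74.6%.

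Peaks outside the promoters carried signal as well. The peak at chr17:47381463-47382388 was assigned to Guca1b, 3005 bp before its start, but it also lay 46 bp past the end of the ribosomal protein gene Mrps10. It had 4.61, 2.50 and 3.98 RPKM of H3K18La at 5 mM and 14.3, 9.30 and 9.10 at 25 mM, and H3K27Ac of 10.2 and 17.6 at 5 mM and 70.0 and 48.4 at 25 mM. No library overlapped the other glucose group, and the log2 fold changes were 1.45 ± 0.31 (adjusted p = 0.00505) and 2.08 ± 0.57 (adjusted p = 0.00404).

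Within Guca1a, the intron peak 729 bp into the gene, chr17:47398816-47399855, had 3.19, 1.67 and 0.708 RPKM of H3K18La at 5 mM and 16.1, 5.20 and 1.62 at 25 mM, and its groups overlapped. It was not called for H3K18La (1.46 ± 0.66, adjusted p = 0.108). It was called without the third 25 mM library, the lowest (2.19, adjusted p = 0.0248), by voom (1.35, adjusted p = 0.0298) and with a replicate block (1.46, adjusted p = 0.0204), so this call depends on the fit. Its H3K27Ac values, 3.11 and 5.42 at 5 mM and 40.2 and 22.7 at 25 mM, gave the largest H3K27Ac log2 fold change of the members, 2.73 ± 0.49 (adjusted p = 1.51e-05). The intron peak further in was called for both marks, at 2.91 ± 0.58 for H3K18La and 1.62 ± 0.51 for H3K27Ac. Its H3K18La value rests on 0 to 3 reads per library at 5 mM. That call was lost when reads were thinned to equal RPKM denominators (2.29, adjusted p = 0.101).

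Rd3 had more peaks than the other 4 genes together, and they fell into 2 kinds. On and in the gene were a promoter peak, 2 intron peaks and a second promoter peak at the start of a shorter transcript. A further 9 peaks lay 8981 to 32912 bp before the start and were annotated as intergenic, and the 2 farthest lay nearer to the zinc transporter gene Slc30a1 than to Rd3. The promoter peak, chr1:191974774-191978089, is the widest of all members (3316 bp) and so the best covered. It had 4.43, 3.55 and 2.44 RPKM of H3K18La at 5 mM and 21.9, 17.3 and 13.3 at 25 mM. H3K27Ac was 9.97 and 18.3 at 5 mM and 54.7 and 38.9 at 25 mM. The log2 fold change was 2.18 ± 0.29 for H3K18La (adjusted p = 0.000634) and 1.73 ± 0.56 for H3K27Ac (adjusted p = 0.0122).

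The second promoter peak of Rd3, chr1:191983947-191984344, held 0, 1 and 1 reads of H3K18La at 5 mM, or 0, 0.485 and 1.85 RPKM, and 5.11, 11.1 and 5.08 RPKM at 25 mM. Summed over libraries, 2 reads stood against 28, a ratio of 13.5 per read of the denominator (95% exact interval of the counts, 3.39 to 117). H3K27Ac gave 8.13 and 19.8 at 5 mM and 45.8 and 40.9 at 25 mM, a log2 fold change of 1.72 ± 0.55 (adjusted p = 0.0117). In H3K27Ac this peak stood above 98.6% of promoter peaks at 5 mM and 98.2% at 25 mM, while in H3K18La it stood above 39.9% at 5 mM and 92.3% at 25 mM. Between these promoters the intron peak 3396 bp into the gene, chr1:191980766-191981930, had the highest group mean of all 23 peaks at 25 mM in both marks. Its H3K18La values were 4.48, 6.13 and 5.06 RPKM at 5 mM and 37.6, 22.6 and 17.1 at 25 mM, and its H3K27Ac values 19.1 and 26.1 at 5 mM and 129 and 77.2 at 25 mM. It was called for both marks with nearly the same log2 fold change, 2.13 ± 0.29 for H3K18La (adjusted p = 0.000692) and 2.13 ± 0.63 for H3K27Ac (adjusted p = 0.00712).

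**Figure D3:**
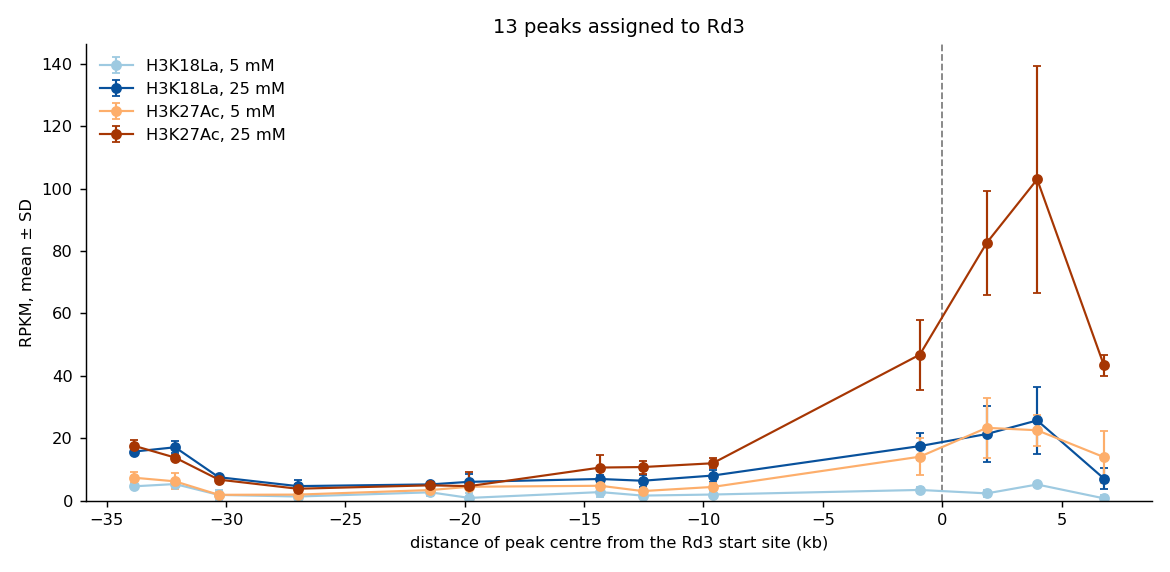
Mean RPKM (± SD) of the 13 peaks assigned to Rd3 against the distance of the peak's centre from the gene's start in kb, for the 4 groups of libraries. Lines join the peaks of a group and do not show signal between peaks, and whiskers that would pass below 0 are cut. H3K27Ac at 25 mM reaches 103 RPKM inside the gene, while at the 9 intergenic peaks both marks lie between 3.86 and 17.6 RPKM at 25 mM.

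The balance of the marks separated the 2 kinds of Rd3 peaks at 25 mM. In the intergenic peaks at 25 mM, group means were 4.70 to 17.1 RPKM for H3K18La and 3.86 to 17.6 for H3K27Ac, and the ratio of H3K27Ac to H3K18La was 0.773 to 1.68 with a median of 0.944. In the Rd3 introns that ratio was 3.86 and 4.00, and in the 6 member promoters 2.33 to 6.10. Over all tested peaks its median was 3.94 in promoters and 1.22 outside them. At 5 mM the ratio was 1.02 to 4.89 in the intergenic peaks, 4.33 and 9.85 in the introns and from 2.16 upward in the promoters, so the ranges overlapped. The ratio compares 2 antibodies, so only its differences between peaks can be read, and they were not tested.

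The 4 peaks of the gene itself had log2 fold changes of 2.13 to 2.93 for H3K18La and 1.72 to 2.13 for H3K27Ac, and the intergenic peaks reached lower. For H3K18La 8 of 9 were called, from 0.89 to 2.75 on the log2 scale, and for H3K27Ac 5 of 9, between -0.29 and 1.65, where 35.0% and 27.2% of all tested peaks outside promoters were called higher. For H3K18La 5 of 9 were called without any 1 of the 25 mM libraries. For H3K27Ac none was called without either 25 mM library and 3 without the first 5 mM library. The exception in H3K18La was the peak 20553 bp before the start, with 0.89 ± 0.34 (adjusted p = 0.0642). The peak farthest upstream, chr1:191942577-191944458, varied little across replicates: 4.79, 4.41 and 4.70 RPKM of H3K18La at 5 mM and 16.2, 14.8 and 16.3 at 25 mM. Per kilobase, the 4 peaks of the gene carried 1.30, 1.33 and 1.04 times the H3K18La signal of the 9 intergenic peaks in the 5 mM libraries, and 2.66, 2.04 and 1.48 times at 25 mM. For H3K27Ac the same ratio was 3.31 and 4.06 at 5 mM and 6.37 and 5.19 at 25 mM. This within-library ratio does not depend on a library's scaling factor, but the share of reads in peaks also differed between the groups. Its groups did not overlap for either mark, and it was not computed for other genes. Over all tested peaks the median log2 fold change was 1.23 in promoters and 0.74 outside them for H3K27Ac. For H3K18La these medians were 0.97 and 1.06. The Rd3 ratio was computed after the peak values were seen and was not tested.

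Reads were then summed over the peaks of each gene, 24360 bp in all, and divided by each library's RPKM denominator. For the 5 genes together H3K18La gave 71.6, 61.6 and 56.0 RPM at 5 mM and 333, 233 and 223 at 25 mM, which put the mean 4.17-fold higher. H3K27Ac gave 156 and 254 at 5 mM and 879 and 604 at 25 mM, 3.61-fold higher. By a two-sided exact permutation test p was 0.100 for H3K18La, the smallest that 3 against 3 libraries allow, and 0.333 for H3K27Ac, the smallest for 2 against 2, and adjusted over 12 sums they were 0.200 and 0.333. Each of the 5 genes was higher in every 25 mM library than in any 5 mM library of the same mark, with ratios of 3.55 to 5.56 for H3K18La and 3.27 to 5.66 for H3K27Ac. The same held for 46.6% of all 25400 genes with a peak in H3K18La and for 65.6% in H3K27Ac, so it does not set these genes apart. Guca1a had the largest ratio in both marks. The order of the levels was the same in the means of all 4 groups, with Rd3 first through its 13 peaks and Gucy2f last through its weak ones. Gucy2e and Guca1b, next in that order, did not differ beyond their spread for H3K18La at 25 mM (22.6 ± 7.78 and 22.5 ± 8.29, SD, n = 3).

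Scaling to the reads in peaks moved the median log2 fold change of all tested peaks to 0.02 for H3K18La and -0.22 for H3K27Ac. On this scale the 5 genes held a larger share at 25 mM in every library. Whether other peaks of like strength gained as much was not tested. H3K18La gave 596, 517 and 474 reads per 1000000 of these at 5 mM and 951, 738 and 714 at 25 mM, a ratio of 1.51. H3K27Ac gave 740 and 806 against 1265 and 1070, also 1.51. Groups did not overlap in either mark, and the exact permutation p values were again at the smallest possible, 0.100 and 0.333 (adjusted 0.300 and 0.364). Gene by gene, the groups overlapped in H3K18La for Gucy2e and Guca1a and did not for the other 3, of which Gucy2f was a near tie (12.97 at most at 5 mM, 12.98 at least at 25 mM), and they overlapped for none in H3K27Ac. On this scale 6.13% of all genes lay wholly higher at 25 mM in H3K18La and 17.2% in H3K27Ac. The intergenic peaks of Rd3 overlapped in H3K27Ac, with 170 and 158 at 5 mM and 159 and 164 at 25 mM, but not in H3K18La, with 218 to 241 at 5 mM and 256 to 290 at 25 mM, a ratio of 1.17.

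**Figure D4:**
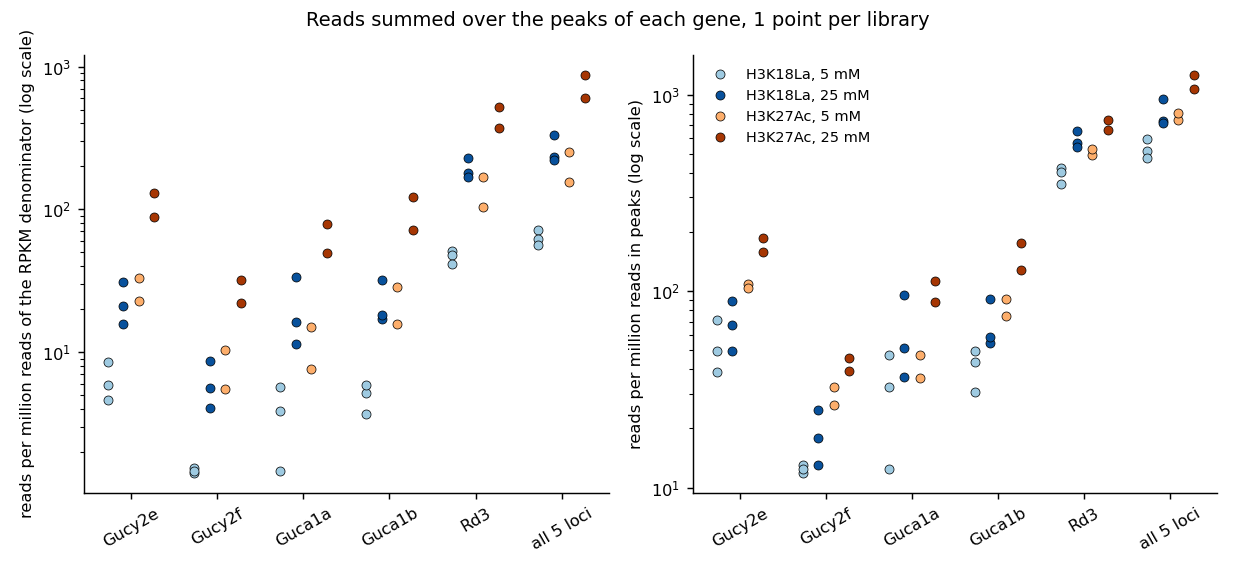
Reads summed over the peaks of each gene and of all 5, per 1000000 reads of the library's RPKM denominator (left) and per 1000000 of its reads in peaks (right), on log axes. Each point is 1 library. The 5 genes together lie at 56.0 to 71.6 against 223 to 333 for H3K18La on the left and at 474 to 596 against 714 to 951 on the right.

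Whether the marks responded unequally was asked with a glucose by mark interaction over all 10 libraries. limma called 0 of 22 members and 0 of 72467 peaks, with 1 member and 3650 peaks at an unadjusted p under 0.05, and voom on the recovered reads also called none. The coefficients, H3K27Ac response minus H3K18La response, ran from -3.04 to 1.27 with standard errors of 0.43 to 1.07. The lowest, the Rd3 peak 19676 bp before the start, rested on 0, 4 and 0 reads of H3K18La at 5 mM. For the promoters it ran from -1.04 to 0.39. Intervals of this width leave the marks neither shown to differ nor shown to act alike.

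Other genes of the cyclic GMP cycle were read through the strongest promoter peak of each. Over all 12657 genes with such a tested peak, 26.4% were called higher for H3K18La and 59.8% for H3K27Ac, with median log2 fold changes of 0.96 and 1.26. The 5 cyclase genes had medians of 2.18 and 2.01. Of the phosphodiesterase genes that break cyclic GMP down, 4 of 5 had a tested promoter peak, and 4 rose in H3K18La and 3 in H3K27Ac. Pde6g, the inhibitory subunit, went from 1.96 to 11.6 RPKM of H3K18La and from 13.7 to 59.9 of H3K27Ac between group means, and Pde6b, a rod catalytic subunit, had log2 fold changes of 2.29 ± 0.34 and 2.09 ± 0.54. Pde6a also rose in both marks (2.14 ± 0.38 and 2.08 ± 0.50). The cone subunit Pde6c rose in H3K18La (1.59 ± 0.35) and had 1.13 ± 0.49 in H3K27Ac (adjusted p = 0.0581).

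Among the cyclic GMP-gated channel and exchanger genes, 4 of 6 rose in each mark, which for H3K27Ac is near the 59.8% of all genes. The rod channel subunit Cngb1 rose by a log2 fold change of 2.01 ± 0.39 in H3K18La and 1.83 ± 0.55 in H3K27Ac, and the rod exchanger Slc24a1 by 1.68 ± 0.36 and 1.95 ± 0.53. In addition the rod subunit Cnga1 rose in both, the cone subunit Cnga3 in H3K18La and the cone exchanger Slc24a2 in H3K27Ac. The cone subunit Cngb3 passed in neither (0.73 ± 0.54 and 0.47 ± 0.47).

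Of 5 genes listed for transport of membrane or lipid-anchored proteins to the outer segment, 4 rose in H3K18La and 5 in H3K27Ac. Over all genes 26.4% and 59.8% were called higher. Unc119, which carries the rod G protein, had the largest change, 2.69 ± 0.41 and 2.65 ± 0.57. Reep6, a rod endoplasmic reticulum protein, had 1.36 ± 0.40 and 1.54 ± 0.57. Arl3 and Rd3l rose in both marks, and Pde6d, the prenyl-binding carrier, rose in H3K27Ac and had -0.03 ± 0.54 in H3K18La.

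The guanylate cyclases of other tissues formed a contrast in level. Only 5 of 8 had a promoter peak, the highest group mean was 10.8 RPKM, and 1 rose in each mark: Gucy1a1, a subunit of the nitric oxide receptor, in H3K18La (1.58 ± 0.40), and its partner Gucy1b1 in H3K27Ac (1.74 ± 0.44). The median log2 fold change of the 5 was 0.98 and 0.61, against 0.96 and 1.26 over all genes. For H3K18La the count and the median were thus near those of all genes, of which 26.4% were called higher. For H3K27Ac the count lay below the 59.8% of all genes. Among calcium sensors of the same protein family as the activators, 4 of 6 tested rose in each mark, Rcvrn, Hpcal1, Hpcal4 and Ncald, which for H3K27Ac is again near the share of all genes, with a median of 1.37 against 1.26. Recoverin (Rcvrn), which acts on rhodopsin kinase, went from 2.06 to 9.70 RPKM of H3K18La and from 10.7 to 39.1 of H3K27Ac. Of 6 genes for the supply of GTP, 2 rose in H3K18La (Impdh1 and Guk1), which is near the 26.4% of all genes. All 6 rose in H3K27Ac, where 59.8% of all genes were called higher. Guk1, the guanylate kinase, had 1.92 ± 0.35 and 1.63 ± 0.61, and Impdh1, the retinal form of the rate-limiting enzyme of GTP synthesis, had 1.63 ± 0.38 and 2.04 ± 0.55.

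**Figure D5:**
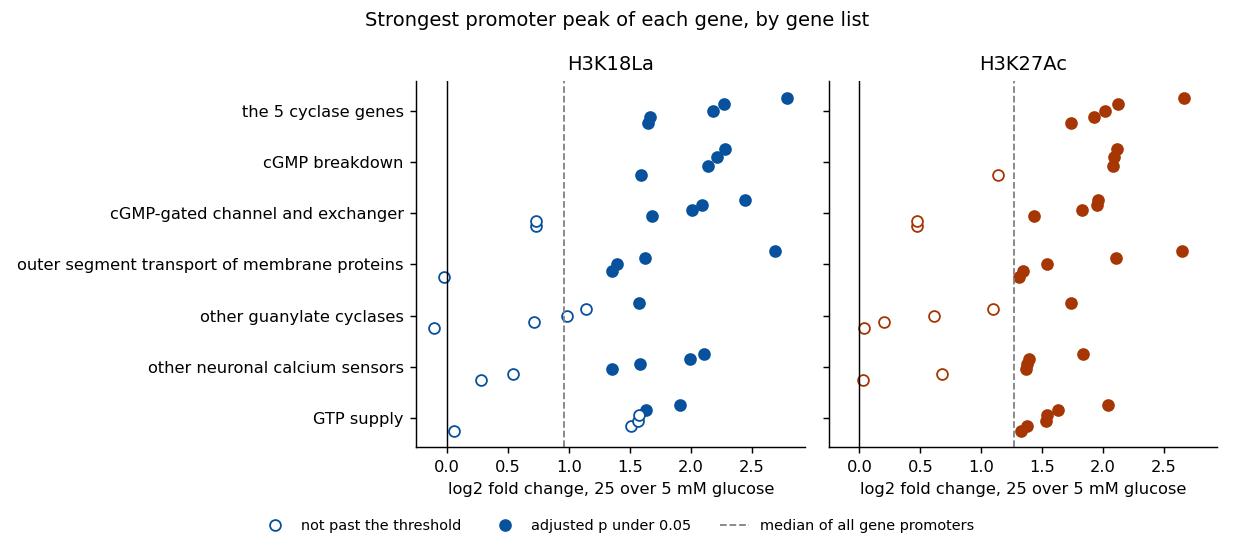
Log2 fold change of 25 over 5 mM glucose for the strongest promoter peak of each gene, by list, H3K18La left and H3K27Ac right. Each point is 1 gene, filled where the adjusted p was under 0.05, and the dashed line is the median over all genes, 0.96 and 1.26. All 5 cyclase genes lie to the right of it in both marks.

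Markers of retinal cell types were read in the same way, against the 26.4% and 59.8% of all genes called higher for H3K18La and H3K27Ac. Summed over 5 rod markers, the promoter levels were 9.35 to 10.1 RPKM of H3K18La at 5 mM and 44.1 to 110 at 25 mM, and all 5 were called higher in both marks, with medians of 2.50 and 2.25. For 5 cone markers the sums were 5.62 to 9.79 and 15.0 to 19.6, with 1 of 4 tested called higher in H3K18La and 2 in H3K27Ac. None of the 4 tested Müller glia and 4 tested bipolar markers was called for H3K18La, and 2 and 4 rose in H3K27Ac. Of the pigment epithelium markers Rpe65 had no promoter peak, Rgr was called higher in both marks, Mitf in H3K18La and Best1 in neither. Their summed H3K18La was 3.06 to 11.3 RPKM at 5 mM and 15.3 to 21.7 at 25 mM, of which Rgr alone gave a mean of 13.0 at 25 mM, and the list's median log2 fold change was 1.47 in H3K18La and 0.67 in H3K27Ac. The amacrine list had 1 of 2 called in each mark (Slc6a9), and horizontal and ganglion cell lists 0 of 1 in H3K18La and 1 of 1 in H3K27Ac. Cldn5, the only vascular marker with a promoter peak, had -1.80 on the log2 scale in H3K18La (adjusted p = 0.0744) and -1.25 in H3K27Ac (adjusted p = 0.0476), where its groups overlapped (1.27 and 2.66 RPKM at 5 mM, 0 and 1.48 at 25 mM). No microglial marker had a promoter peak. The part of cell composition in the results was not tested.

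The promoters whose pattern over the 10 libraries was most like each member's were ranked by Pearson's r of log2(RPKM + 0.5) over 14815 promoter peaks, as a description, since all points share the mark, glucose level and denominator of their libraries. For Gucy2e they were Slc24a1, Cdk5r2 and Galnt10 (r of 0.994 to 0.996). Gucy2f was nearest to Cuedc1, Sntb2 and A930003A15Rik (0.993 to 0.995), and Guca1a to Cerkl, C330008A17Rik and Smug1 (0.983 to 0.995). Guca1b was nearest to Fzd5, Gm14508 and Mtus1 (0.994 to 0.996), and Rd3 to Nr2e3, Mecr and Rdh8 (0.996 to 0.998). The median r over all promoter peaks was 0.718 for Guca1a and 0.816 to 0.878 for the other 4, so a high r is common here.

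The sequence of the member peaks was described in the same way. Their GC content was 41.1% to 59.7% with a median of 52.2%, and 49.6% over all peaks. The 6 promoter peaks had a median of 52.8%, below the 57.5% of all promoter peaks. The letters TAATCC or GGATTA were in 4 of the 6 member promoter peaks and in 27.1% of all promoter peaks, and in 6 of the 17 other member peaks against 28.5% of all peaks outside promoters. The GC box was in 2 of the 6, those of Gucy2e and Rd3, against 68.9% of all promoter peaks, and the NRL half-site in 4 of the 6 against 53.1%. Neither the strongest intron peak of Rd3 (1165 bp) nor the promoter peak of Guca1b held the CRX letters.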

How the data were processed

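Alignment to GRCm38 was done by the authors in nf-core/cutandrun; they called peaks with MACS, annotated them with ChIPseeker 1.34.1 and counted reads with csaw over a fixed peak set, merged from consensus peaks. Their methods name merged H3K18La peaks of developing retina for differential binding, and for a principal component analysis of the explants a merge of peaks of both marks. The study describes a developing-retina set of the same size as this table, and which libraries its peaks were called in is not settled by the sources used here. The authors deposited RPKM values. A further deposited table of their own H3K18La differential binding (edgeR 3.40.2 fold changes and p-values) was not used.

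All deposited RPKM values were whole multiples of 1 read (tolerance 0.02 reads), so reads and denominators (1358008 to 7424470) were recovered. Whether the authors' scaling factors are part of these denominators is not given in the sources used here, and they are not called sequencing depth. Intervals cover counting error only.

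limma 3.58.1 in R 4.3.3 (eBayes with trend) was run on log2(RPKM + 0.5), which understates changes of weak peaks, for peaks averaging 1 RPKM or more, with Benjamini-Hochberg adjustment over all of them. The fit was tested on simulated data with 200 changed peaks. These data held no genome-wide rise and no general difference in the share of reads in peaks, so they do not test the scaling. Sums used exact permutation in scipy 1.17.1. All peaks of the 5 genes were kept. Values per library are given for promoter peaks and for the strongest other peak of a gene. For pathway lists the 2 strongest promoters are named, and any gene called in a list with 5 or fewer calls. The members, lists, motifs and the minimum RPKM were chosen with earlier results of these data known. The main fits did not pair libraries by replicate number. Same-numbered libraries of a mark correlated at 0.013 to 0.029 in their deviations from the group mean. With a median of 1 to 11 reads per peak, such low values cannot show that the libraries were unpaired. Across marks, same-numbered libraries correlated at -0.016 to 0.031, except within 25 mM, at 0.193 and 0.0732. The interaction may therefore not compare independent libraries. Alternatives were 2 other pseudocounts, no minimum, 3 other scalings, voom, robust moderation, a replicate block, a threshold of 0.01, thinning and leaving out each library.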

Additional observations from a re-analysis of the deposited data

How the results depend on the processing

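The number of called member peaks depended on the scaling and, for H3K27Ac, on single libraries. For H3K18La, 18 became 4 with median centring and 0 with scaling to reads in peaks or quantile normalization, and was 13 at a threshold of 0.01, 14 when thinned and 15 with no minimum RPKM. For H3K27Ac, 17 became 3 with median centring, 0 with scaling to reads in peaks, quantile normalization, no minimum RPKM or thinning to equal RPKM denominators, and 10 at a threshold of 0.01. These scalings moved the median log2 fold change of all tested peaks to 0.16, 0.02 and 0.02 for H3K18La and to 0.14, -0.22 and 0.01 for H3K27Ac (centring, reads in peaks, quantile), and that of the members to 0.79, 0.51 and 0.48 and to 0.96, 0.48 and 0.22. Without a minimum RPKM and thinned, the H3K27Ac median of the members was 1.65 and 1.66, and the degrees of freedom fell from 144934 to 4.82 and 4.77. In the fits that called 0 members, 5 to 18 members had an unadjusted p under 0.05, against 9.88% to 36.2% of all peaks. With a replicate block the counts were 19 and 5. Leaving out 1 library gave 14 to 18 calls for H3K18La and 0 to 20 for H3K27Ac, the lowest without the first 25 mM library, and there the lone library left in a group is assumed to vary like the others. voom called 20 and 18. No alternative called a member for the interaction. The ratio of the summed signal moved to 1.51 for both marks when scaled to reads in peaks, and stayed between 3.61 and 4.94 for H3K18La and between 2.92 and 4.74 for H3K27Ac otherwise.

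Direction turned mostly in peaks that were not called or under scalings that lowered the median log2 fold change of all tested peaks. The exception was the Rd3 peak at -26704 bp, called for H3K18La (1.41), which turned when thinned. For H3K18La these were Gucy2f at 7258 bp (-0.31 with median centring, -0.22 with quantile normalization, -0.57 thinned), Guca1b at -3005 bp (-0.031, quantile), and Rd3 at -31713 bp (-0.060, quantile), -26704 bp (-0.056, thinned), -20553 bp (-0.38 in peaks, -0.35 quantile) and -13972 bp (-0.0099 in peaks, -0.017 quantile). For H3K27Ac they were Gucy2f at 7258 bp (-0.13 in peaks) and Rd3 at -32912 bp (-0.0095 in peaks, -0.16 quantile), -31713 bp (-0.060, -0.12), -26704 bp (-0.27 in peaks), -20553 bp (-0.22 centred, -0.67 in peaks, -0.44 quantile), -13972 bp (-0.17, -0.17) and -19676 bp, where -0.29 became 0.029 thinned and ran from -1.35 to 0.77 when 1 library was left out, the latter without the second 25 mM library. No promoter peak turned. At 1 to 9 reads in a 5 mM H3K18La library, counting error limits what single weak peaks can show.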
